A study of Mus musculus with 6 samples.

Results

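Villus-tip enterocytes were taken as the jejunal epithelial cells with the highest share of transcripts from 4 genes that mark the tip of the villus, *Ada*, *Slc28a2*, *Clca4a* and *Nt5e*. The score of a cell was the summed unique molecular identifier (UMI) count of these genes divided by all UMIs of the cell, where 1 UMI stands for 1 captured RNA molecule. Cells were eligible when they held at least 750 detected genes, at most 20% mitochondrial UMIs, less than 2% of UMIs from the Paneth cell gene *Lyz1* and no UMI of the immune genes *Cd3e*, *Cd3g* and *Ptprc*. The highest 10% of the 23823 eligible cells, pooled over 6 libraries, gave 2382 members. The 6 libraries held 59457 barcodes called as cells, of which 26696 passed the filters on genes and mitochondrial UMIs.

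The study asked how a chronic high-fat diet (HFD) and vertical sleeve gastrectomy (VSG), which removes most of the stomach, affect the small intestinal epithelium. Single-cell RNA libraries were made from crypt and villus suspensions of the jejunum of 3 groups of male wildtype C57BL/6J mice about 30 weeks old. LFD sham mice ate a low-fat diet (LFD) and had a sham operation, HFD sham mice ate the HFD and had a sham operation, and HFD VSG mice ate the HFD and underwent VSG. All mice had been on their diet for 16 weeks before surgery, were sampled 5 weeks after it and were fasted overnight. Each library pooled 3 LFD sham, 3 HFD sham or 2 HFD VSG mice, so that every group and fraction was 1 library with no replicate. The crypt and villus libraries of a group are not replicates of it, so no difference between groups was tested, and the 95% intervals below (exact binomial for shares, exact Poisson for ratios of counts) cover counting error only.

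Enterocytes are born in the crypts, climb the villus within days and are shed at its tip, where they change from nutrient absorption toward adhesion, barrier and purine handling programs. Extracellular nucleotides are cut by ecto-enzymes to adenosine, which the ecto-5'-nucleotidase encoded by *Nt5e* releases from AMP. The concentrative nucleoside transporter encoded by *Slc28a2* brings purine nucleosides into the cell, and adenosine deaminase, encoded by *Ada*, turns adenosine into inosine on the way to uric acid. *Clca4a* encodes a member of the calcium-activated chloride channel regulator family.

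The 4 scored genes lie on chromosomes 2, 3 and 9 of the mouse genome (GRCm38). *Ada* (ENSMUSG00000017697) spans chr2:163726584-163750239 on the minus strand, *Slc28a2* (ENSMUSG00000027219) chr2:122426477-122461137 on the plus strand, *Clca4a* (ENSMUSG00000068547) chr3:144952480-144975045 on the minus strand and *Nt5e* (ENSMUSG00000032420) chr9:88327197-88372092 on the plus strand. The 250 bases before the RefSeq start (GRCm38.p6) of the 2 purine genes whose start could be placed are shown, since the score rests on how strongly these genes are transcribed in the same cells. Capitals mark motif matches.
Ada, chr2:163750240-163750489, minus strand: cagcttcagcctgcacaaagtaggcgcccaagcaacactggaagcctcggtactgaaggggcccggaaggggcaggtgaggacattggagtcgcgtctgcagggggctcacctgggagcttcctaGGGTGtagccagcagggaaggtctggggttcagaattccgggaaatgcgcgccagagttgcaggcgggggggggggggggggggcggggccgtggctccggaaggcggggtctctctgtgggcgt
Slc28a2, chr2:122426185-122426434, plus strand: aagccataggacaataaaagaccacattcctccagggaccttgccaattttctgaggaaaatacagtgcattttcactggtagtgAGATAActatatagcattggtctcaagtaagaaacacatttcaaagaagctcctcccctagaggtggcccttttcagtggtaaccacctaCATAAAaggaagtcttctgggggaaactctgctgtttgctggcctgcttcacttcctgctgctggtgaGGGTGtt
The capitals in *Ada* are the reverse complement of CACCC, the core of many KLF sites, 125 to 121 bases before the start. In *Slc28a2*, capitals mark the GATA motif AGATAA at 165 to 160 bases, the reverse complement of the CDX motif TTTATG at 75 to 70 bases and that of CACCC at 7 to 3 bases before the start. Both strands were searched. The letters CAAAGTC, a motif of HNF factors held by 3.84% of all windows, are in neither. The letters TGANTCA, read by AP-1 factors and held by 6.75%, are in neither window, and the same holds for the nuclear receptor motif AGGTCA, which 14.0% of all windows hold. Of 32851 RefSeq windows of the same length, 52.0% held CACCC on either strand, 9.99% held AGATAA and 10.8% held TTTATG. The *Ada* window was 67.2% G or C and the *Slc28a2* window 45.2%, beside a median of 52.4% over all windows. A match of letters is a description and does not show that a factor binds there.

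Before any result, 3 features of the libraries have to be stated. The crypt-labelled libraries held more members and fewer stem cell transcripts than the villus-labelled libraries, which goes against their labels: the 6 stem markers (*Lgr5*, *Olfm4*, *Ascl2*, *Smoc2*, *Slc12a2* and *Axin2*) summed to 163, 181 and 264 UMIs per 1000000 UMIs (CPM) in the other eligible cells of the libraries labelled LFD sham, HFD sham and HFD VSG crypts, and to 861, 347 and 693 CPM in the matching libraries labelled villi. Fractions are therefore named by label only. The called barcodes of a library held 60522766 to 155522445 UMIs, and 73 eligible barcode sequences occurred in more than 1 library, none of them a member. Droplets with fewer than 100 UMIs, which hold free RNA, carried the 4 genes at 8.80, 11.2 and 5.04 per 10000 UMIs in the crypt-labelled and at 1.96, 0.819 and 0.405 in the villus-labelled libraries of LFD sham, HFD sham and HFD VSG, so that the free RNA of HFD sham crypts lay above the lowest member score of 9.08 per 10000 UMIs.

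Members made up 19.0% of the eligible cells of LFD sham crypts (825 of 4345 cells, 95% interval 17.8% to 20.2%), 21.2% of HFD sham crypts (665 of 3140, 19.8% to 22.6%) and 11.6% of HFD VSG crypts (587 of 5061, 10.7% to 12.5%). In the villus-labelled libraries the share was 5.79% in LFD sham (197 of 3400, 5.03% to 6.63%), 2.20% in HFD sham (89 of 4044, 1.77% to 2.70%) and 0.496% in HFD VSG (19 of 3833, 0.299% to 0.773%). Every crypt-labelled library thus held a larger share than every villus-labelled library. The crypt-labelled share was 3.28 times the villus-labelled share in LFD sham (2.80 to 3.85), 9.62 times in HFD sham (7.70 to 12.1) and 23.4 times in HFD VSG (14.8 to 39.1). These intervals cover counting error only. With at most 10% mitochondrial UMIs the ratios were 8.73, 6.66 and 65.9, so their sizes and the order of LFD sham and HFD sham depended on that limit. Over the 3 crypt and villus pairs an exact paired permutation test of the log2 share gave p = 0.25 (two-sided), with the crypt-labelled share higher in 3 of 3. This is the smallest p that 3 pairs allow in this test, so it could not decide the question. The pairs are also 3 different groups, and the share follows from the score that chose the members. HFD VSG had the lowest share in both fractions. Relative to HFD sham it was 0.548 times as large in crypts (0.489 to 0.613) and 0.225 times in villi (0.130 to 0.373). HFD sham lay 1.12 times above LFD sham in crypts (1.01 to 1.24) but at 0.380 times LFD sham in villi (0.292 to 0.490). The free RNA carried the 4 genes in the same order between fractions, and its part in these shares was not tested. A share of cells in a suspension depends on how the tissue was scraped and strained as well as on the tissue, which cannot be told apart with 1 library per group and fraction.

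**Figure D1:**
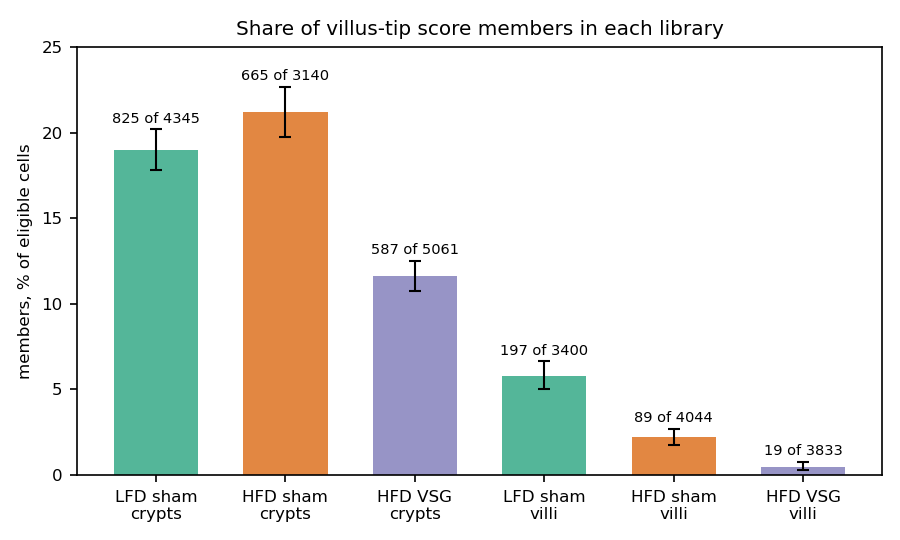
Share of eligible cells that were members in each library (vertical axis, %), with exact binomial 95% intervals as error bars and the number of members of eligible cells above each bar. The 3 crypt-labelled libraries lay between 11.6% and 21.2% and the 3 villus-labelled libraries between 0.496% and 5.79%.

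Members were shallower than the other eligible cells. Their median depth was 5157, 4388 and 7730 UMIs in LFD sham, HFD sham and HFD VSG crypts, beside 13790, 13721 and 17406 UMIs in the other eligible cells of the same libraries. In the matching villi it was 6169, 4825 and 12482 UMIs beside 14157, 13349 and 32541. The score divides by depth, so that a cell with few UMIs passes with few UMIs of the 4 genes. Members held 2 to 921 UMIs of the scored genes, with a median of 28. Median mitochondrial shares of members lay between 10.9% and 15.2%, those of the other cells between 7.43% and 12.9%. The rule kept barcodes that a doublet score marked, which were 10.9%, 11.1% and 15.8% of the members in the crypt-labelled and 13.2%, 8.99% and 0% in the villus-labelled libraries.

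The lowest score among members was 9.08 and the highest among the remaining cells 9.07 per 10000 UMIs, and 213 members and 222 other cells lay within a factor of 1.25 of the threshold. Over the members the quartiles were 17.0, 40.2 and 112 per 10000 UMIs, with a maximum of 531. Of all eligible cells, 54.3% (12939) held no UMI of the 4 genes. A cut at a fixed share of cells leaves adjacent values on both sides, so this does not show whether the members form a class of their own.

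*Clca4a* supplied most of the score. It gave 58.5% of the members' summed score, *Ada* 29.0%, *Slc28a2* 6.90% and *Nt5e* 5.52%, and it was the largest of the 4 in 76.3% of the members. All 4 genes were seen together in 594 members, 3 of them in 558, 2 in 890 and a single gene in 340, of which 319 held *Clca4a* alone. No *Ada* UMI was found in 432 members (18.1%), no *Slc28a2* UMI in 1342 and no *Nt5e* UMI in 1529, while 55 lacked *Clca4a*. A cell without a UMI of a gene may still express it at this depth.

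*Ada*, the adenosine deaminase gene, stood at 2038, 2462 and 1693 CPM in the members of LFD sham, HFD sham and HFD VSG crypts and at 1834, 4114 and 2590 CPM in those of the matching villi. In the other eligible cells it was 30.8, 52.2 and 23.8 CPM in crypts and 6.56, 3.96 and 2.24 CPM in villi. Every library showed the gap, which the rule itself made. A UMI of *Ada* was found in 62.9% to 85.0% of members by library. In *Lyz1*-high barcodes, which should lack it, the share was 43.8%, 69.0% and 43.9% in the crypt-labelled and 10.6%, 3.24% and 6.98% in the villus-labelled libraries. After thinning every cell to 2000 UMIs it was 59.5% to 73.7% in members and 0.397% to 13.4% in the other eligible cells. In thinned *Lyz1*-high barcodes it was 29.2%, 13.8% and 7.32% in the crypt-labelled libraries and 1.12% and 1.41% in LFD sham and HFD sham villi.

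*Slc28a2*, the nucleoside transporter gene, stood at 627, 446 and 364 CPM in members of the crypt-labelled and 528, 811 and 466 CPM in members of the villus-labelled libraries, in the order LFD sham, HFD sham and HFD VSG. Between 31.6% and 47.5% of members held a UMI. *Nt5e*, the ecto-5'-nucleotidase gene, had 301, 394 and 492 CPM in crypts and 197, 518 and 568 CPM in villi, with a UMI in 20.3% to 47.7% of members. *Clca4a* reached 4142, 4080 and 3857 CPM in crypts and 4257, 7100 and 5217 CPM in villi, with a UMI in 97.1% to 100% of members. In the other eligible cells of the crypt-labelled libraries, 48.0%, 52.4% and 32.4% held a *Clca4a* UMI. The shares there were 8.66%, 10.0% and 4.38% for *Slc28a2* and 5.06%, 10.1% and 4.60% for *Nt5e*. In *Lyz1*-high barcodes of these libraries *Clca4a* was found in 52.1%, 58.6% and 48.8%. The HFD sham villi had the highest summed *Ada*, *Slc28a2* and *Clca4a* levels of the 6 libraries, but the lowest share of members with an *Ada* UMI and the lowest median *Ada* per cell, 4.91 per 10000 UMIs against 6.23 to 17.1 elsewhere. Its median *Clca4a* was 54.1 per 10000 UMIs beside 57.5 in HFD VSG villi.

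Each scored gene was also read in cells chosen without it. With *Ada* left out of the score, 2231 of the 2382 cells chosen were members, and *Ada* was 57.1, 42.6 and 63.8 times its level in the remaining cells of LFD sham, HFD sham and HFD VSG crypts and 266, 978 and 1156 times in the matching villi. With *Clca4a* left out, 1776 chosen cells were members and *Clca4a* was 31.0, 27.1 and 36.2 times higher in crypts and 128, 351 and 868 times in villi. The scored genes thus went together in the same cells of all 6 libraries. The rule for members was set with earlier results of these data known, so this is a description and no independent check. With cells chosen on a random split of each cell's UMIs and read in the other UMIs, *Ada* was at 2006, 2495 and 1728 CPM in crypts and 1889, 3894 and 2846 CPM in villi, against 24.7 to 55.0 CPM and 2.19 to 7.27 CPM in the remaining cells. *Ada* was part of the score in that choice, so these values also follow from the rule. Near-copies of 2 scored genes were checked: *Clca4b*, next to *Clca4a* on chromosome 3, shared 7.93% of the 91-base stretches of the *Clca4a* transcripts and 0 of 410 in their last 500 bases, where 3' libraries place most reads. *Gm14085*, the neighbour of *Slc28a2*, shared 22.0% of the stretches in the last 500 bases and had 0 UMIs in the members, so reads of *Slc28a2* that fit both genes may be missing.

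**Figure D2:**
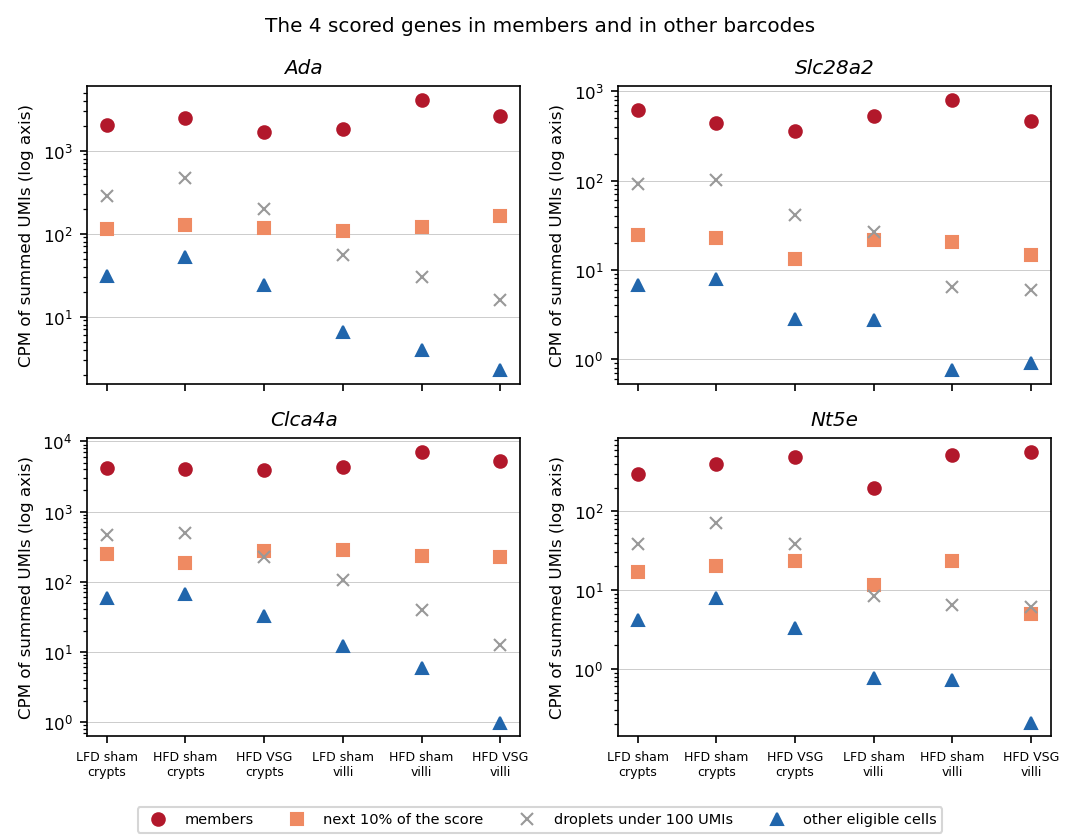
Levels of the 4 scored genes (vertical axes, CPM of summed UMIs, logarithmic) in members, in the next 10% of the score, in the other eligible cells and in droplets with fewer than 100 UMIs, by library. *Ada* lay between 1693 and 4114 CPM in members and between 2.24 and 52.2 CPM in the other eligible cells, and the low-UMI droplets of the crypt-labelled libraries stood above those of the villus-labelled libraries.

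The label of villus-tip enterocyte was set beside markers the score did not use. The gene lists were chosen with earlier results of these data known, so they are no independent check of it. Lists also share genes: of the villus-tip genes, *Apoa4* is on the fat uptake and enterocyte lists and *Cldn4* on the adhesion list. Between 98.5% and 100% of members in each library had more than 1% of their UMIs from 10 enterocyte markers such as *Fabp2* and *Rbp2*. The same held for 94.5%, 95.3% and 92.3% of the other eligible cells in LFD sham, HFD sham and HFD VSG crypts and for 70.9%, 82.0% and 60.5% in villi, so these markers set members apart little in the crypt-labelled libraries. The median share was lower in members than in the other cells of LFD sham crypts (682 against 744 per 10000 UMIs) and HFD sham crypts (820 against 928). A list of 16 further villus-tip genes summed to 61547, 62206 and 74583 CPM in the members of LFD sham, HFD sham and HFD VSG crypts and to 55294, 68873 and 93166 CPM in villi, against 30422, 29434 and 33674 CPM and 13036, 19590 and 8409 CPM in the other eligible cells. For each gene, UMIs were summed over members and over the other cells of the same library, and a gene counted as higher or lower when the log2 ratio was at least 1 in size in all 6 libraries. These counts describe cells chosen on the same measurements and are no test. Of 10815 genes whose sums averaged 50 UMIs or more, 256 (2.37%) were higher and 509 (4.71%) lower in members. Of these, 21 of the 256 and 309 of the 509 rested on a sum of at most 3 UMIs. Sums below 3 were set to 3, which is no bound. Scaled by the median of ratios instead of by totals, the balance turned, with 392 higher (3.62%) and 246 lower (2.27%). Among the 3250 genes with at least 10 UMIs in each sum, 193 (5.94%) were higher and 129 (3.97%) lower. With at least 1500 genes per cell 55 (0.510%) were lower. With the highest 10% taken within each library 36 (0.333%) were higher and 0 lower, so the counts depended on depth and on where the members begin.

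Of the 15 other villus-tip genes that could be counted, 9 were higher and 0 lower, with a median log2 ratio of 1.84 beside −0.30 over all genes. Over all genes 2.37% were higher and 4.71% lower, and 5.94% were higher among those with at least 10 UMIs in each sum. *Pmp22*, which encodes a tetraspan membrane and junction protein, was at 1590, 1570 and 1821 CPM in members of the crypt-labelled libraries and 1407, 2175 and 3171 CPM in the villus-labelled, against 91.3, 136 and 124 CPM and 16.0, 15.5 and 6.26 CPM in the other cells. The keratin gene *Krt20* ranged from 3288 to 5028 CPM in members and from 305 to 1120 CPM in the other cells, with no overlap. *Egfr*, the epidermal growth factor receptor gene known from the villus tip, had a median log2 ratio of 2.61 and the zinc finger factor gene *Klf4* 1.84. *Apoa4*, which encodes a chylomicron apolipoprotein, ranged from 11534 to 28960 CPM in members and 1022 to 8685 CPM in the others. The smallest differences were in the crypt-labelled libraries, where the other eligible cells held more of these transcripts.

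Adhesion and keratin genes were next. Of 31 measured, 10 were higher and 0 lower, beside 2.37% and 4.71% of all genes, with a median log2 ratio of 1.00. Of the 29 with at least 10 UMIs in each sum 10 were higher, beside 5.94% of all such genes. *Lama3* and *Lamb3*, which encode laminin chains of the epithelial basement membrane, were among them, with median log2 ratios of 5.53 and 3.37. *Lama3* stood at 221, 286 and 304 CPM in members of LFD sham, HFD sham and HFD VSG crypts and at 197, 656 and 438 CPM in villi, and at 0.829 to 9.97 CPM in the other cells. The tight junction gene *Cldn4* was at 118, 169 and 124 CPM in crypts and 133, 295 and 214 CPM in villi, against 1.62 to 6.36 CPM. *Itgb6*, an integrin subunit, had a median log2 ratio of 3.86, the epithelial gene *Sfn* (stratifin) 2.52, the cytolinker *Plec* 2.03, and the desmosome genes *Dsp* and *Dsg2* 1.93 and 1.30. In the HFD VSG villi, *Itgb6* rested on 35 UMIs in members.

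Genes of purine uptake and breakdown outside the score were mixed. Of 23 measured, 5 were higher and 0 lower, beside 2.37% and 4.71% of all genes, with a median log2 ratio of 0.04. *Enpp3*, an ecto-enzyme that cuts nucleotides such as ATP outside the cell, was at 922, 763 and 473 CPM in members of the crypt-labelled and 836, 907 and 479 CPM in those of the villus-labelled libraries, against 56.5 to 59.1 CPM and 5.86 to 22.6 CPM in the other cells. *Slc23a4*, a nucleobase transporter gene, reached 182 to 274 CPM against 3.54 to 8.48 CPM, with a median log2 ratio of 5.06. *Entpd8*, which removes phosphates from extracellular nucleotides, had a median of 1.64, intestinal alkaline phosphatase *Alpi* 1.56 and the cytosolic nucleotidase *Nt5c2* 2.41. *Enpp3* is also on the list of villus-tip genes. The later steps to uric acid did not reach the threshold: the medians were 0.80 for xanthine dehydrogenase *Xdh*, 0.30 for guanine deaminase *Gda* and 0.04 for purine nucleoside phosphorylase *Pnp*, which stood at 84.0 to 173 CPM in members and 89.7 to 164 CPM in the other cells.

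Genes of purine salvage and synthesis were read beside 4.71% lower and a median of −0.30 over all genes. At any size 13 of 16 genes were below the other cells in all 6 libraries, but 10 of the 16 had 0 UMIs in HFD VSG villi members. At the threshold 0 were higher and 3 lower, namely *Impdh2* (median log2 ratio −2.00), *Gart* (−1.79) and *Gmps* (−1.76), and the list's median was −1.10. In the HFD VSG villi members these 3 genes had 1, 0 and 4 UMIs, and only 2 of the 16 genes had at least 10 UMIs in each sum, neither of which reached the threshold. Adenosine kinase *Adk*, which returns adenosine to AMP, was at 29.3, 33.7 and 40.6 CPM in members of the crypt-labelled and 30.2, 48.1 and 34.0 CPM in the villus-labelled libraries, against 67.8 to 81.2 CPM and 81.7 to 90.1 CPM in the other cells. Its ratio was thus below 1 in all 6 libraries, with a median of −1.24 on the log2 scale. Of 8 pyrimidine genes, *Uck2* alone was lower. The 4 adenosine receptor genes together had at most 8.38 CPM in members, and 1 could be counted.

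Few genes of nutrient absorption reached the threshold, read beside 2.37% higher and 4.71% lower over all genes. Of 24 genes of fat uptake and chylomicron assembly, 2 were higher, *Acsl3* (median log2 ratio 2.58) and *Apoa4* (2.15), and 1 was lower, the fatty acid binding protein gene *Fabp1*. The list's median was 0.89, beside −0.30 over all genes. At any size, 12 of its genes were above and 3 below the other cells in all 6 libraries. Its sum was larger in members of every library, with 93463 against 83089 CPM in HFD sham crypts and 134697 against 31273 CPM in HFD VSG villi. *Fabp1* was at 5128, 6348 and 8441 CPM in members of the crypt-labelled and 4393, 2850 and 3854 CPM in those of the villus-labelled libraries, against 12035 to 18244 CPM in the other cells. None of 21 genes of sugar and peptide absorption reached the threshold, with a median of −0.05. Sucrase-isomaltase *Sis* was lower by a median of −1.09 on the log2 scale but by only −0.15 in HFD VSG villi. Of 16 genes of fat oxidation, 3 were lower, *Acaa2* and *Acot1* among them, and 0 higher. The list's median was −1.11, and at any size 14 of the 16 were below the other cells in all 6 libraries. *Acot1*, an acyl-CoA thioesterase gene, had 0 and 1 UMIs in the members of HFD sham and HFD VSG villi.

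Lower villus and crypt genes were counted next, read beside 2.37% higher and 4.71% lower over all genes. Of 14 lower villus genes, 9 were lower and 0 higher, with a median of −1.92, among them the regenerating family lectin gene *Reg3a* and the glutathione transferase genes *Gsta1* and *Gstm3*. Only 7 of the 14 had at least 10 UMIs in each sum, of which 3 were lower. The list still summed to 3939 to 18533 CPM in members. Of the 6 stem markers 3 were lower, with sums of 27.2 to 286 CPM in members against 163 to 861 CPM in the other cells, and of 9 dividing cell markers 2 were lower, with sums of 48.6 to 146 CPM against 148 to 694 CPM. None of these stem or dividing cell markers had at least 10 UMIs in each sum and was lower. Of 22 regulators of enterocytes and BMP signaling, 4 were higher: *Prdm1*, a repressor known from intestinal maturation (2.83), *Klf4*, and the feedback inhibitors *Smad7* (2.09) and *Skil* (2.10). Against eligible cells rich in enterocyte markers instead of all others, 258 genes were higher and 141 lower.

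**Figure D3:**
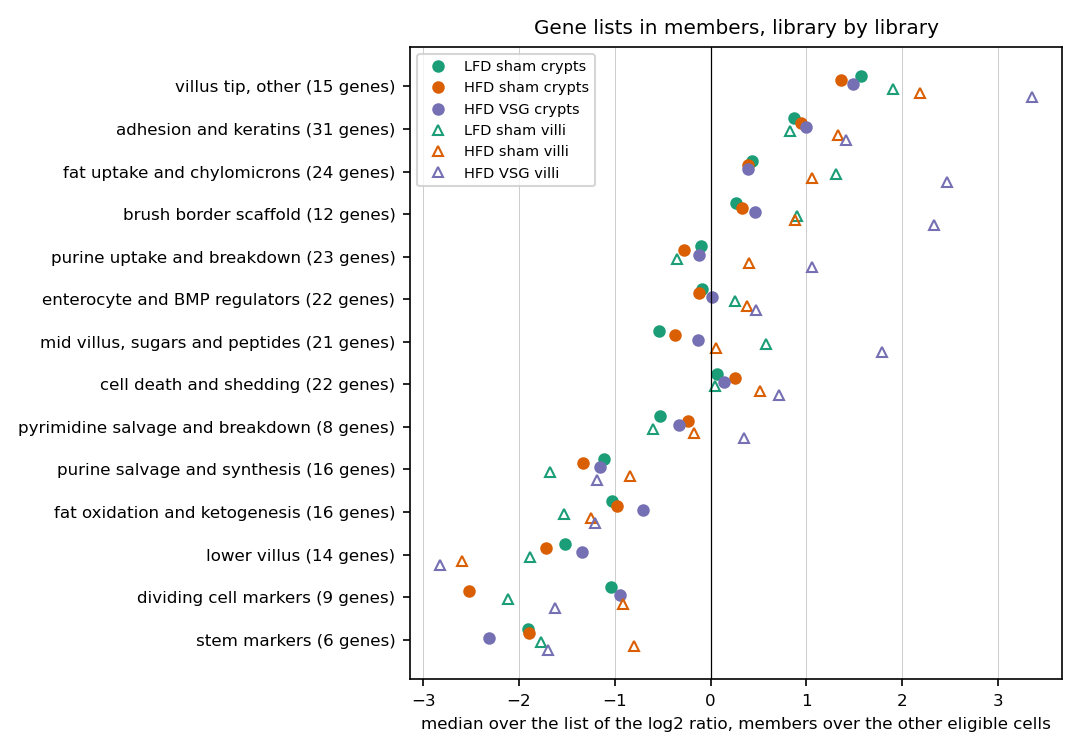
Median log2 ratio of members over the other eligible cells of the same library (horizontal axis) for 14 gene lists, with 1 point per library (filled circles crypt-labelled, open triangles villus-labelled) and the number of genes counted beside each list. Over the 6 libraries the list medians were 1.84 for other villus-tip genes, 1.00 for adhesion and keratins, −1.10 for purine salvage and synthesis and −1.92 for lower villus genes.

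The genes whose sums averaged 100 UMIs or more were ranked by their smallest ratio over the 6 libraries, and 15 were named at the upper end. *Ly6m*, an Ly6 family surface protein gene, led with 1553, 1568 and 1626 CPM in members of the crypt-labelled and 1651, 2923 and 3341 CPM in the villus-labelled libraries. In the other eligible cells it was at 15.6, 22.2 and 8.18 CPM and at 2.39, 1.41 and 0.399 CPM. It was not scored, and its median log2 ratio of 8.53 was the largest of the 15. *Gprc5a*, an orphan receptor gene, followed with 62.9 to 190 CPM against 0.299 to 2.30 CPM, and *Clu*, which encodes the chaperone clusterin, had a median of 5.20 on 7 to 316 UMIs in members. *Slc23a4*, *Cldn4*, *Lama3*, *Pmp22* and *Itgb6* were also among them, with *Pmepa1* (4.34), *Hspa12a* (4.45), *Rasgef1b* (4.44), *Lhfpl2* (3.80), *Runx1* (3.76), *4930539E08Rik* (3.73) and *Tubb2a* (3.49). *Pmepa1* is a TGF-beta target that dampens SMAD signaling, and *Rasgef1b* overlaps another annotated gene. Among the 10 lowest were *Fabp6* (−2.76), *Ehf* (−2.62), *Idh2* (−2.54), *Clca3b* (−2.38), *Slc12a2* (−2.26), *Ctsh* (−2.22), *Mecr* (−1.99), *Smoc2* (−1.90) and *Plp2* (−1.89). Against the cells rich in enterocyte markers 4 of them turned to higher in members, *Clca3b* (1.50), *Slc12a2* (1.33), *Smoc2* (1.98) and *Plp2* (0.54). Each of the 10 rested on 0 to 4 UMIs in HFD VSG villi members. *Fabp6* encodes the ileal bile acid binding protein and *Idh2* a mitochondrial isocitrate dehydrogenase.

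Markers of other cells were read in members and in the other cells. The 6 Paneth markers exceeded 1% of UMIs in 23.4% of LFD sham villi members and 32.6% of HFD sham villi members, beside 13.5% and 17.5% of the other cells, and in at most 3.52% of members elsewhere. Their median per cell was higher in members of every library, with 17.0 against 6.85 per 10000 UMIs in LFD sham crypts and 62.2 against 27.8 in LFD sham villi. The enteroendocrine markers summed to 1136, 1175 and 801 CPM in members of the crypt-labelled libraries against 243, 136 and 524 CPM in the others, while in villi they were 1136, 54.6 and 81.6 CPM against 566, 574 and 463 CPM. A few cells carried these sums: 1.58%, 1.95% and 1.02% of members of the crypt-labelled libraries had more than 1% of their UMIs from these markers, beside 0.653%, 0.444% and 0.760% of the others. Members with any such UMI were 32.6%, 29.9% and 34.2% beside 35.0%, 33.6% and 39.0% of the others. The immune markers *Cd3e*, *Cd3g* and *Ptprc* were at 0 by rule. *Gzma*, a granzyme gene of intraepithelial T cells, met the threshold for higher levels in members but on 0 to 30 UMIs per library, the 0 set to 3, and the low-UMI droplets held 477 and 506 CPM of it in LFD sham and HFD VSG villi. *Gm42418*, *Gm26917*, *Lars2* and *AY036118*, transcripts that overlap ribosomal RNA sequence or mark damaged droplets, summed to 146852, 132377 and 24413 CPM in members of the crypt-labelled libraries and 143894, 106183 and 19538 CPM in the villus-labelled, against 72367, 61157 and 14417 CPM and 56720, 45045 and 8565 CPM in the others. Their part in the differences between members and other cells was not tested. With these 4 genes out of the totals, 300 genes were higher and 408 lower.

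In the remaining lists few genes reached the threshold, read beside 2.37% higher and 4.71% lower over all genes. None of 12 brush border scaffold genes reached the threshold (median log2 ratio 0.64), nor did any of 14 immediate early and heat shock genes (0.20), 13 mitochondrially encoded genes (0.21), 7 MHC class II genes (0.60), 7 goblet markers (−1.01) or 6 tuft markers (−0.44). The goblet markers differed by fraction, with list medians of −0.40, 0.13 and −0.39 in LFD sham, HFD sham and HFD VSG crypts and −1.66, −3.06 and −3.71 in villi. They summed to 3460, 1161 and 578 CPM in the villus-labelled members against 10934, 9947 and 7692 CPM in the other cells. The MHC class II medians were −0.30 to 0.30 in crypts and 1.23 and 1.69 in LFD sham and HFD sham villi. All 7 class II genes had 0 UMIs in the HFD VSG villi members, against a sum of 51.5 CPM in the other cells, so no ratio is given there. The 6 tuft markers had 0 UMIs in these members as well. The medians of 0.60 and −0.44 for the 2 lists include ratios set by the floor of 3 UMIs in that library. Of 22 genes of cell death and shedding 1 was lower, *Bcl2l15* (−1.60), and of 9 interferon response genes 1 was higher, *Irf7* (1.73), a transcription factor of that response. In the Clca family, *Clca4b* stood at 3652, 2839 and 3457 CPM in members of LFD sham, HFD sham and HFD VSG crypts and at 4028, 3659 and 4031 CPM in villi, against 1928, 1473 and 1354 CPM and 710, 760 and 170 CPM in the other cells. It was higher in all 6 libraries but below the threshold in the crypt-labelled LFD and HFD sham libraries, and its neighbour *Clca4a* was scored. No B or plasma cell marker and no myeloid marker had enough UMIs to be counted, and the red blood cell markers were at 0 in the members of 5 libraries.

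Members were not alike along their own range. In 4 equal bins of members by score, *Ada* had 263, 535, 1326 and 7128 CPM and *Clca4a* 888, 1959, 5060 and 9760 CPM, so that *Ada* was concentrated in the highest bin. Of 15 unscored tip genes 14 rose at every step, and so did 21 of 30 adhesion and keratin genes. Over all 242 listed genes that averaged 50 UMIs or more a bin, 63 rose at every step. *Krt20* was at 2044, 2633, 4065 and 5632 CPM, *Pmp22* at 848, 1256, 2188 and 2677 CPM and *Apoa4* at 11046, 14585, 20272 and 32473 CPM. *Lama3* was at 47.7, 89.8, 210 and 890 CPM and *Cldn4* at 33.9, 43.4, 129 and 404 CPM. All 14 lower villus genes and all 21 sugar and peptide genes were lower in the highest bin than in the lowest, and 13 and 14 of them fell at every step, beside 151 lower and 89 falling at every step of 242 listed genes that averaged 50 UMIs or more a bin. *Sis* was at 4529, 3802, 2274 and 766 CPM, the glucose transporter gene *Slc2a2* at 410, 355, 189 and 57.4 CPM and *Reg3b* at 7061, 5303, 3332 and 2204 CPM. Other absorptive genes changed little or rose before the highest bin, with the peptide transporter gene *Slc15a1* at 810, 839, 926 and 705 CPM and the amino acid transporter gene *Slc6a19* at 426, 484, 542 and 386 CPM. The fat uptake and chylomicron genes were split, 12 higher and 11 lower of 23, beside 91 higher and 151 lower of the 242 listed genes. *Apob* was at 6804, 7764, 9657 and 12620 CPM. The lowest bin, scoring 9.08 to 17.0 per 10000 UMIs, had *Sis* at 4529 CPM where the median over libraries in the other eligible cells was 4907 CPM. Barcodes marked by the doublet score were 14.8%, 19.1%, 11.9% and 3.03% of the bins. The bins are cut from the score and pool the libraries, so these values are descriptions.

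Within each library, the eligible cells were also split into 10 equal bins by score. Over the 60 bins, the genes outside the score with the highest Spearman correlation with it were *Ly6m* (0.82), *Pmp22* (0.82), *Osbpl1a* (0.81), *Enpp3* (0.80) and *Rasgef1b* (0.79), followed by *Agrn*, *Slc25a22*, *Tuft1*, *Lama3* and *Tsc22d4*. Bins of a library share its free RNA and depth and the lower bins hold cells that tie at a score of 0, so these correlations carry no p-value.

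**Figure D4:**
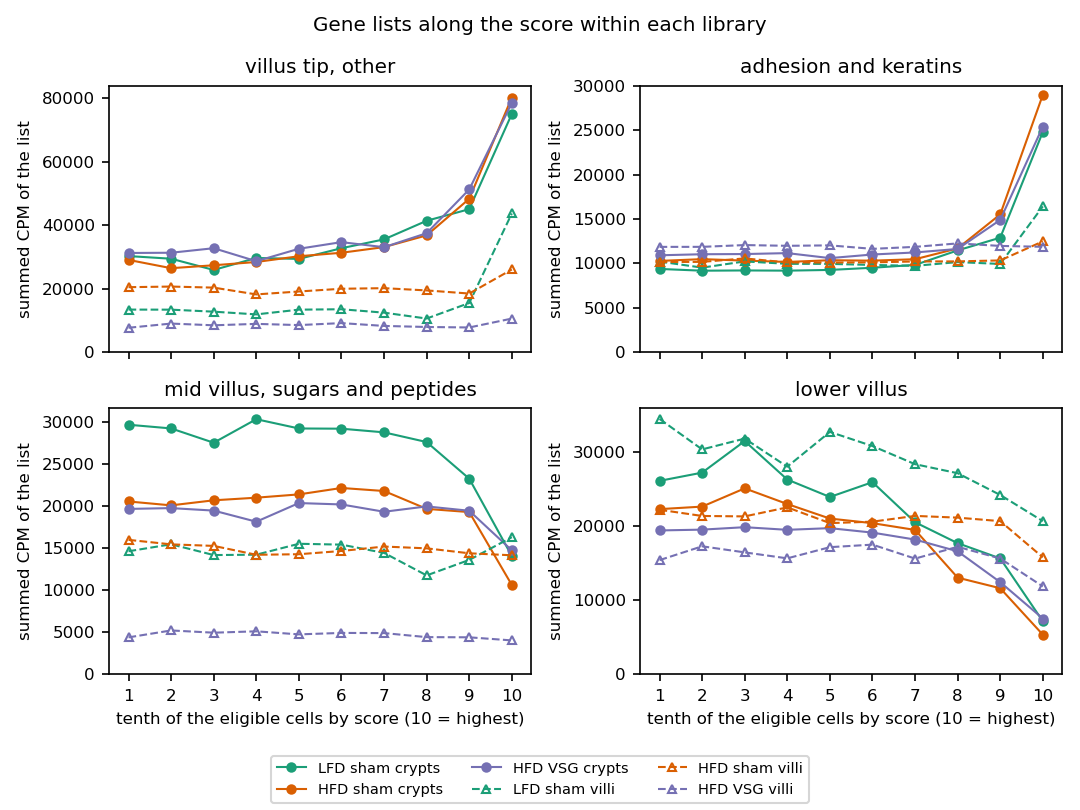
Summed CPM of 4 gene lists (vertical axes) in 10 equal bins of the eligible cells of each library by score (horizontal axis, 10 = highest), with solid lines for crypt-labelled and dashed lines for villus-labelled libraries. Members were 434 of 434, 314 of 314 and 506 of 506 cells of the highest bin in LFD sham, HFD sham and HFD VSG crypts but 197 of 340, 89 of 404 and 19 of 383 in villi. Over whole libraries they had 55294 to 93166 CPM of other villus-tip genes and 3939 to 18533 CPM of lower villus genes.

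Members were set beside other sets of eligible cells. The next 10% of the score had *Ly6m* at a median of 40.6 CPM over libraries, against 1639 CPM in members, and other villus-tip genes at 35679 CPM against 65539 CPM. That set held more markers of other lineages. Its medians were 9020 CPM of goblet, 1753 of enteroendocrine and 276 of stem markers, against 3444, 969 and 40.6 CPM in members. Their part in the lower tip gene levels was not tested. Enterocytes in the highest 10% for *Leap2* and *Bbox1* shared 108 cells with the members (4.53% of each set). They had more sucrase-isomaltase transcript, with *Sis* at a median of 6698 CPM against 2299 CPM, and fewer adhesion and keratin transcripts, at 9511 CPM against 22802 CPM. Their fat uptake and chylomicron genes summed to 102946 CPM, beside 92395 CPM in members. Cells in the highest 10% for *Car4* and *Ms4a18* shared 39 cells (1.64% of each set) and had 14294 CPM of other villus-tip genes and 25860 CPM of lower villus genes, where members had 8650 CPM. For *Ly6m*, *Pmp22* and *Krt20* the lowest member library was above the highest library of each of these sets.

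To ask whether members differed with diet, UMIs of members were summed by library and HFD sham was divided by LFD sham in each fraction, a gene counting when the log2 ratio was at least 0.5 in size in one direction in both fractions. Of 2355 genes averaging 50 UMIs or more in each fraction, 37 (1.57%) were higher and 33 (1.4%) lower in HFD sham. The study's methods state a larger free RNA fraction for both HFD sham libraries than for the others. With the stated fractions subtracted, 83 of 2232 genes were higher (3.72%) and 70 lower (3.14%). In the crypt-labelled pair alone, which holds 665 and 825 members, 368 of 5817 genes were higher (6.33%) and 331 lower (5.69%). The 4 scored genes chose the members, so their ratios between groups are descriptions of values the rule used, here and below. None of them counted, with *Ada* at 0.27 in crypts and 1.17 in villi. *Tm4sf4*, a tetraspanin-like gene of the small intestine, went from 172 to 778 CPM in crypts and from 92.0 to 988 CPM in villi, log2 ratios of 2.17 (2.06 to 2.29) and 3.43 (3.15 to 3.71), and the other eligible cells had 2.50 and 1.01. *Rbp2*, the retinol binding protein gene, went from 4337 to 7390 CPM and from 3810 to 6634 CPM. The other highest genes were *Dnase1* (1.29 and 1.36), *Cyp2j6* (1.03 and 1.59), *Adh1* (0.91 and 0.92), *Anxa13* (0.85 and 0.87), *Cox7a1* (0.83 and 0.90) and *S100a6* (0.78 and 2.50), each pair given for crypts and villi.

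All 4 major histocompatibility complex (MHC) class II genes that could be counted were lower in HFD sham members. Over all genes 1.57% were higher and 1.4% lower. *Cd74*, the invariant chain, was at 537 CPM in LFD sham and 97.8 CPM in HFD sham crypts and at 1192 and 142 CPM in villi, log2 ratios of −2.46 (−2.62 to −2.30) and −3.07 (−3.45 to −2.71). *H2-Aa* had −2.78 and −3.81, *H2-Ab1* −2.41 and −3.26 and *H2-Eb1* −2.20 and −2.96. The other eligible cells had −3.20 and −3.59 for *Cd74*, so the gap was present outside the members too. *Bco1*, which cleaves beta-carotene to retinal, was lower by −1.77 and −2.37, and *Reg3g* by −1.45 and −3.20. *Dmbt1* and *Ptma* completed the 8 lowest, and 1 cell held 64.3% of the *Dmbt1* UMIs of HFD sham villi. Both turned direction under alternatives, with at least 1500 genes per cell to 0.96 for *Dmbt1* and 0.39 for *Ptma* in crypts. Of 11 lower villus genes 3 were lower (*Reg3b*, *Reg3g* and *Dmbt1*) and 0 higher, but the median of the list was 0.44 in crypts and −0.12 in villi. Of 21 sugar and peptide genes 1 was higher, *Treh* (0.59 and 0.59), and 3 were lower, *Mgam* (−0.91 and −0.87), *Slc5a1* (−0.75 and −0.73) and *Slc2a2* (−0.82 and −0.85), with list medians of 0.043 and 0.20 near those of all genes (0.016 and 0.12). Of 25 adhesion and keratin genes 3 were higher, *Krt19* (1.05 and 0.63), *Lamb3* (1.36 and 1.78) and *Cldn4* (0.52 and 1.15), and 0 lower. With the 4 transcripts out of the totals *Cldn4* was 0.50 in crypts, just short of the threshold. In villi, members of HFD sham were also further along the score, with 36.0% of 89 in the highest of the 4 bins beside 21.8% of 197 in LFD sham, and its part in these ratios was not tested.

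HFD VSG members were next divided by HFD sham members, which share the HFD sham libraries with the comparison above. Of 1065 genes counted, 45 (4.23%) were higher and 25 (2.35%) lower, but the split rested on scaling: with the 4 transcripts *Gm42418*, *Gm26917*, *Lars2* and *AY036118* out of the totals 13 were higher and 33 lower, and with median-of-ratios scaling 13 and 36. The crypt-labelled pair alone had 803 of 6232 higher (12.9%) and 131 lower (2.1%). *Gm42418* itself was at 119450 CPM in HFD sham and 21899 CPM in HFD VSG crypts and at 97653 and 17605 CPM in villi, and *Lars2* and *AY036118* were lower by a like amount (−2.44 and −2.18, −2.42 and −2.07). The median gene stood at 0.18 in crypts and 0.14 in villi on the log2 scale. The villus side rests on 19 HFD VSG cells, 1 of which held 22.4% of the *Ada* UMIs. *Enpp3*, which was not scored, was lower in HFD VSG by −0.69 (−0.76 to −0.61) in crypts and −0.92 (−1.21 to −0.64) in villi. Of the scored genes, read from values the rule used, *Ada* had −0.54 in crypts and −0.67 in villi, *Slc28a2* −0.29 and −0.80, *Clca4a* −0.08 and −0.44 and *Nt5e* 0.32 and 0.13. The ferritin genes *Fth1* (0.90 and 0.90) and *Ftl1* (0.64 and 0.96) were higher, as were *Plb1* (1.05 and 0.81), *Agpat2* (0.66 and 1.07), *Apoc2* (0.70 and 0.94), *Rpl17* (0.86 and 0.73), *Rps16* (0.71 and 0.66) and *mt-Nd3* (0.73 and 0.64). In villi the direction of 6 of these turned under an alternative. With the highest 10% taken within each library, *Plb1* was −1.71, *Apoc2* −0.58, *Agpat2* −0.19 and *mt-Nd3* −0.089, and with 10% of UMIs subtracted as free RNA *Rpl17* was −0.84 and *Rps16* −1.13. The highest 10% of HFD VSG villi were 383 cells, of which 19 were members, so that alternative mostly reads other cells. With the 4 transcripts out of the totals *Agpat2* and *Ftl1* were 0.49 and 0.47 in crypts and no longer counted. Of 13 mitochondrially encoded genes 1 was higher, *mt-Nd3*, and 1 lower, *mt-Nd6* (−0.72 and −2.19). The medians of that list were 0.11 in crypts and −0.18 in villi.

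All 5 Paneth markers that could be counted were lower in HFD VSG members as deposited, beside 2.35% of all genes. Cells rich in *Lyz1* had been left out by the rule, so its level was capped. *Lyz1* went from 153 to 73.6 CPM in crypts and from 1084 to 95.2 CPM in villi. *Defa24*, *Defa30* and *Itln1*, and *Defa17* outside the list, lay between −1.16 and −1.06 in crypts and between −3.87 and −3.01 in villi. The other eligible cells had −0.92 and −2.00 for *Lyz1*. With the free RNA fraction that the study's methods state for each library subtracted, too few UMIs of these 5 genes were left in HFD sham crypts to give a ratio. With 10% of UMIs subtracted in every library they stayed lower in both fractions. With at most 10% mitochondrial UMIs *Lyz1* in crypts was 0.018 and *Defa17* 0.090. Members with more than 1% Paneth UMIs were 0.752% in HFD sham and 0.852% in HFD VSG crypts and 32.6% and 0% in villi, and their part in these ratios was not tested. No gene of the adhesion and keratin list counted in either direction of 22, and of 8 purine uptake and breakdown genes *Pnp* (0.65 and 0.55) and *Pnp2* (0.63 and 1.33), near-identical neighbours whose reads may be split, were higher and *Enpp3* lower. With the 4 transcripts out of the totals *Pnp* was 0.48 and 0.42 and *Pnp2* 0.46 and 1.20, so neither counted, and *Enpp3* was −0.86 and −1.05.

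HFD VSG was also set against LFD sham, the pair that differs in both diet and surgery. It shares libraries with both comparisons above. Of 2222 genes counted, 206 (9.27%) were higher and 67 (3.02%) lower in HFD VSG members, and 73 and 115 with the 4 transcripts out of the totals. The crypt-labelled pair alone had 1372 of 6551 higher (20.9%) and 300 lower (4.58%). *Tm4sf4* was at 172 CPM in LFD sham and 996 CPM in HFD VSG crypts and at 92.0 and 2100 CPM in villi. *Rbp2* had log2 ratios of 1.20 and 1.52, *Apoc2* 1.65 and 1.34, *Cox7a1* 1.13 and 1.56, *Ms4a10* 1.17 and 1.53, *Dnase1* 1.18 and 1.60, *Gm5485* 1.52 and 1.54 and the metalloprotease gene *Mep1a* 1.11 and 2.66. With the highest 10% taken within each library the villi turned to −1.02 for *Apoc2*, −0.56 for *Dnase1*, −0.31 for *Gm5485* and −0.36 for *Mep1a*. Here too 19 of the 383 HFD VSG villi cells so chosen were members, so these values mostly read other cells. Of the scored genes, whose values the rule used, *Nt5e* was at 301 CPM in LFD sham and 492 CPM in HFD VSG crypts and at 197 and 568 CPM in villi, a description with no reading as a group difference. Of 14 other villus-tip genes 1 was higher, *Apoa4* (0.58 and 1.33), and 1 lower, *Enpp3* (−0.96 and −0.80), and with the 4 transcripts out of the totals *Apoa4* was 0.39 and 1.13 and no longer counted. Of 25 adhesion and keratin genes 4 were higher, *Lamb3* (1.69 and 1.90), *Krt19*, *Cldn3* and *Sfn*, and 0 lower. With the 4 transcripts out of the totals 3 of the 4 remained, and *Sfn* was 0.38 in crypts and no longer counted. *Cd74* was at 88.7 CPM in HFD VSG crypts and had 0 UMIs in the 19 HFD VSG villi members, where *H2-Aa*, *H2-Ab1* and *H2-Eb1* had 0 as well. In crypts *Cd74* had a log2 ratio of −2.60. LFD sham villi members held 1776 *Cd74* UMIs, and no ratio is given for the 0 in the 19 HFD VSG villi members. The enteroendocrine granin genes *Chga* and *Chgb* also had 0 UMIs there, beside 432 and 1075 UMIs in LFD sham villi members, of which 1 cell held 57.4% and 54.3%. *Bco1* was lower by −3.01 in crypts and rested on 6 UMIs in villi, 83.3% of them in 1 cell. *Gm42418* (−2.61 and −2.93), *AY761184* (−2.45 and −2.58) and *Gm7861* (−2.30 and −2.84) completed the 8 lowest. With 10% of UMIs subtracted as free RNA, *AY761184* in villi gave 2.33. This is near the value that the floor of 3 UMIs in both libraries gives, so it is no measured ratio.

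**Figure D5:**
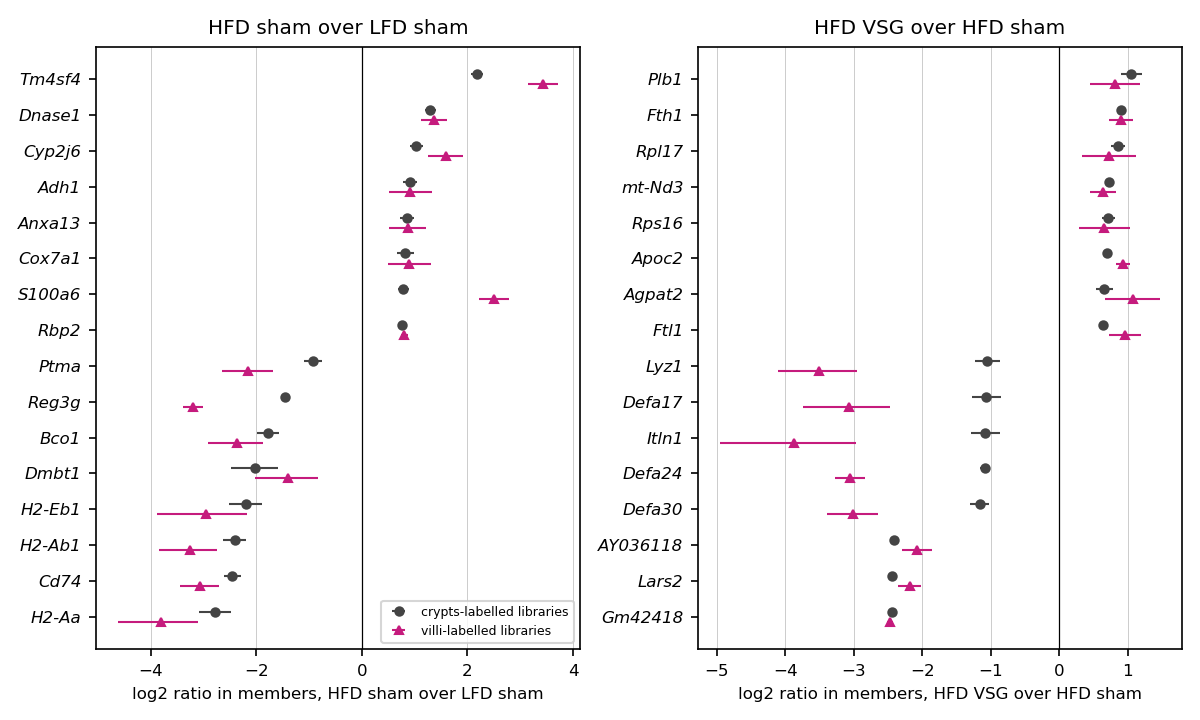
Log2 ratios in members (horizontal axes) of HFD sham over LFD sham (left) and HFD VSG over HFD sham (right) for the 16 genes with the largest ratios shared by both fractions, with exact Poisson 95% intervals as bars. *Tm4sf4* reached 2.17 in crypts and 3.43 in villi in the diet comparison, and *Gm42418* −2.45 and −2.47 in the surgery comparison.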

How the data were processed

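Single-cell 3' RNA libraries (10x Genomics) of 6 jejunal crypt or villus suspensions were used. The UMI counts per gene and barcode are the values the authors deposited, as filtered and raw matrices; the submitters' processing notes name Cell Ranger 6.0.0 and mm10. Matrices were read with Python 3.11.15, numpy 2.4.6, scipy 1.17.1 and pandas 2.3.3, and figures drawn with matplotlib 3.10.9. Each library was 1 sample, so groups were not tested; an exact paired permutation test compared the fractions.

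The members and the gene lists were chosen with earlier results of these data known. Values are CPM of UMIs summed over the cells of a set, and sums below 3 UMIs were set to 3 before a ratio was taken. Ratios needed sums averaging 50 UMIs or more, and a log2 size of 1 in all 6 libraries (members against the other eligible cells) or 0.5 in both fractions (between groups) to count. Named genes were the scored genes; where sums averaged 100 UMIs or more, the 15 highest and 10 lowest against other cells and the 8 highest and 8 lowest of each comparison between groups, ranked by the smallest size over libraries or fractions; up to 4 genes of each list with those whose role is described; and the 10 genes most like the score.

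Doublets were scored against simulated pairs (2 per barcode, 2000 genes, 30 components, 20 neighbours, scikit-learn 1.9.0) with 0.8% called per 1000 barcodes, and stayed in unless said. Thinning to 2000 UMIs left out 38 to 273 cells per library. Droplets under 100 UMIs gave the free RNA. Of 32285 genes, 32158 matched GENCODE vM21 by identifier. Promoters are RefSeq windows (GRCm38.p6), 250 bases before the start. Some genes are not reported here. The scripts recovered known differences in simulated counts. For members against the other eligible cells, the simulation was scored at a lower threshold than the one used here. It therefore does not show how well that rule recovers differences. Alternatives changed the filters, the score, the scaling, the thresholds and the cells compared.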

Additional observations from a re-analysis of the deposited data

Results flagged for a closer look

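The log2 ratio of the share of members in HFD sham over LFD sham was 0.16 in the crypt-labelled and −1.40 in the villus-labelled libraries. The fractions moved in opposite directions, each on 1 library per group, and the difference between them was not tested.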

How the results depend on the processing

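Depth and cell number set the limits. Every group and fraction was 1 library, the HFD VSG villi gave 19 members with 294239 UMIs in all, and counts of genes moved with the filters and with where the members begin. Between groups no paired test was run, as each fraction held a single library of each group and all libraries were numbered 1. The 3 crypt and villus pairs gave the exact permutation p in the report. Of the alternatives, the crypt-labelled libraries alone, the upper part of the members, at least 10 UMIs in every sum and totals without the 4 transcripts that mark damaged droplets were chosen after seeing the data. Free RNA was taken off at 10% of UMIs, or at the fraction that the study's methods state for each library (stated free RNA). Causes were not tested.

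The log2 ratio of the member share of crypt-labelled over villus-labelled libraries was 1.71, 3.27 and 4.55 in LFD sham, HFD sham and HFD VSG. It was 3.13, 2.73 and 6.04 with at most 10% mitochondrial UMIs and 2.79 in HFD sham for the highest 5% of the score. Taking the highest 10% within each library makes the shares equal by construction (−0.00166, 0.00143 and 0.000845).

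Against 256 genes higher and 509 lower in members than in the other cells, the numbers higher were 394 (highest 5%), 145 (highest 20%), 36 (10% within each library), 392 (median of ratios), 9316 (no minimum), 623 (log2 0.5) and 405 (upper part of members). The numbers lower were 55 (at least 1500 genes), 1005 (5%), 13 (20%), 0 (10% within each library), 339 (thinned to 2000 UMIs), 327 (chosen and read in separate UMIs), 85 (without *Clca4a*), 246 (median of ratios), 141 (against enterocyte-marker-high cells), 1816 (log2 0.5), 853 (crypt-labelled alone), 1019 (upper part) and 129 (10 UMIs in every sum). Leaving out 1 library at a time gave 261 to 314 higher and 515 to 711 lower. The main counts were 2.37% and 4.71% of 10815 genes. The 9316 were 42.2% of 22053 genes, the 141 were 1.62% of 8720 and the 129 were 3.97% of 3250.

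For HFD sham over LFD sham, with 37 higher and 33 lower, the pairs of higher and lower were 94 and 63 (20%), 103 and 88 (10% within each library), 83 and 70 (stated free RNA), 9 and 13 (mean of 200 UMIs), 751 and 255 (no minimum), 7 and 11 (log2 1) and 368 and 331 (crypt-labelled alone). With at least 1500 genes 60 were higher, and with at most 10% mitochondrial UMIs 13 were lower. The main pair was 1.57% and 1.40% of 2355 genes, and the number of genes tested differed. As shares the pairs were 2.35% and 1.58% (20%), 2.71% and 2.31% (10% within each library) and 1.55% and 2.25% (mean of 200). They were 6.04% and 2.05% with no minimum and 0.297% and 0.467% at log2 1. The 60 were 2.13% of 2816 genes and the 13 were 2.13% of 611.

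For HFD VSG over HFD sham, with 45 and 25, they were 7 and 5 (10% mitochondrial), 88 and 42 (20%), 640 and 107 (10% within each library), 7 and 11 (mean of 200), 1352 and 92 (no minimum), 3 and 9 (log2 1) and 803 and 131 (crypt-labelled alone). The number higher was 25 (5%, upper part), 11 (separate UMIs), 78 (without *Clca4a*), 113 (without *Nt5e*), 72 (stated free RNA) and 13 (median of ratios, and totals without the 4 transcripts). The main pair was 4.23% and 2.35% of 1065 genes. As shares the pairs were 1.65% and 1.18% (10% mitochondrial), 4.04% and 1.93% (20%) and 12.2% and 2.04% (10% within each library). They were 3.45% and 5.42% (mean of 200), 13.0% and 0.885% (no minimum) and 0.282% and 0.845% (log2 1). The numbers higher were in turn 3.63%, 2.31%, 10.1%, 10.1%, 7.72% and 1.22%.

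For HFD VSG over LFD sham, with 206 and 67, they were 70 and 22 (10% mitochondrial), 341 and 117 (20%), 1166 and 192 (10% within each library), 110 and 43 (separate UMIs), 75 and 114 (median of ratios), 51 and 32 (mean of 200), 1724 and 170 (no minimum), 13 and 32 (log2 1), 1372 and 300 (crypt-labelled alone) and 73 and 115 (without the 4 transcripts). The number lower was 109 (1500 genes) and 44 (5%, upper part), and 317 were higher without *Nt5e*.

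Single genes changed direction under these alternatives. In HFD sham over LFD sham, *Dmbt1* was 0.96 (1500 genes) and 0.27 (20%) in crypts and 0.17 (5%, upper part) in villi, and *Ptma* was 0.39 (1500 genes), 0.31 (20%) and 0.28 (thinned) in crypts and 0.35 (10% within each library) in villi. In HFD VSG over HFD sham, *Rpl17* was −0.027 (10% mitochondrial) and −0.84 (free RNA of 10% taken off) in villi, *Rps16* −1.13 (free RNA) in villi, *Defa17* 0.090 (10% mitochondrial) and 0.25 (20%) and *Lyz1* 0.018 (10% mitochondrial) in crypts. With the highest 10% within each library, villi gave −1.71 for *Plb1*, −0.58 for *Apoc2*, −0.19 for *Agpat2* and −0.089 for *mt-Nd3*. Of the 383 HFD VSG villi cells so chosen, 19 were members. With the stated free RNA taken off, too few UMIs were left in HFD sham and the values, set by the floor of 3 UMIs, are no measured ratios: crypts gave 6.28 for *Defa30*, 7.89 for *Defa24*, 5.05 for *Defa17*, 5.12 for *Itln1* and 5.49 for *Lyz1*, and villi 0.41 for *Itln1*. In HFD VSG over LFD sham villi, *Gm5485* was −0.31, *Apoc2* −1.02, *Dnase1* −0.56 and *Mep1a* −0.36 (10% within each library) and *Gm5485* −0.85 (without *Clca4a*). There *AY761184* gave 2.33 (free RNA), near the value of the floor of 3 UMIs in both libraries and no measured ratio. Against enterocyte-marker-high cells, members were higher for *Slc12a2* (1.33), *Smoc2* (1.98), *Clca3b* (1.50) and *Plp2* (0.54).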
